A study of Mus musculus with 2 samples.

Results

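The 8 AP-1 transcription factor genes *Fos*, *Fosb*, *Fosl2*, *Jun*, *Junb*, *Jund*, *Atf3* and *Maff* were followed across single macrophages of the mouse sciatic nerve (SN). They were chosen by name, as 8 of the 54838 genes counted, and were read in every barcode with at least 500 UMIs and 200 genes, which gave 5098 cells. A UMI (unique molecular identifier) marks 1 captured RNA molecule, counted from its 3′ end, so that levels do not scale with the length of a transcript.

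Both libraries came from Flt3-Cre LSL-YFP fl/fl mice, in which Cre is driven by *Flt3* and cells whose ancestors expressed it carry YFP. Male mice aged 10 to 12 weeks (19 pooled) gave CD64+ CD45int SN macrophages, which were sorted as YFP− (embryonic-derived, in the study's terms) or YFP+ (derived from hematopoietic stem cells) after enzymatic digestion of the nerves. Each condition was 1 library of pooled mice, so that the spread between mice is unknown, no test was made and all intervals cover counting error only. The YFP− library held 1045 cells (2418044 UMIs, median 2233 per cell) and the YFP+ library 4053 cells (6747554 UMIs, median 1484). A barcode was shared by both libraries in 7 cases. All 10 macrophage markers looked for, *Adgre1*, *Csf1r*, *Fcgr1* and *C1qa* among them, had at least 10 UMIs over the cells of both libraries together. In 1 cluster of 99 cells, 0 of the 10 were raised over the other cells (mean log2 ratio −1.48). That cluster was led by the mural genes *Myl9*, *Myh11*, *Tagln* and *Acta2*.

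AP-1 is a family of dimeric factors that bind short DNA elements through a basic leucine zipper. Fos proteins pair with Jun proteins, while Jun proteins can also pair with each other, and small Maf proteins such as Maff lack an activation domain of their own. Most Fos and Jun genes are immediate-early genes: stimuli that act through MAP kinases turn them on within minutes without new protein synthesis, and their RNAs are short-lived. In macrophages AP-1 takes part in activation and in the response to stress, and Jund is known as the Jun member that resting cells already hold.

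The members lie apart from each other, with *Junb* and *Jund* alone sharing a chromosome. In the GENCODE M21 annotation of GRCm38, *Fos* spans 85473890 to 85477273 on the + strand of chromosome 12, *Fosb* 19302696 to 19310051 on the − strand of chromosome 7 and *Fosl2* 32135801 to 32157842 on the + strand of chromosome 5. *Jun* lies on the − strand of chromosome 4 (95049034 to 95052222), *Junb* on the − strand (84974484 to 84978718) and *Jund* on the + strand (70698949 to 70700616) of chromosome 8, *Atf3* on the − strand of chromosome 1 (191170296 to 191218039) and *Maff* on the + strand of chromosome 15 (79346621 to 79359076). *Jun*, *Junb*, *Jund* and *Atf3* overlap a gene on the opposite strand (*Junos*, *Prdx2*, *Gm11175* and *Gm24748*).

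The 120 bases before the start of transcription are shown for *Fos*, *Fosb*, *Jun*, *Junb* and *Atf3*, which varied together across cells and hold TGACG or TGACNTCA there. *Jund* varied with them and held neither form before its RefSeq start, while *Maff* held both and was too sparse for a correlation. A link between these forms and the joint variation was not tested. The stretches are from RefSeq, on GRCm38.p6, and run 5′ to 3′ in the direction of the gene. Capitals mark TGACG, the core of the element bound by ATF and CREB proteins, or its reverse CGTCA, the longer form TGACNTCA, which can contain it, and TATAA on the gene's own strand.

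Fos, chr12:85473770-85473889, + strand: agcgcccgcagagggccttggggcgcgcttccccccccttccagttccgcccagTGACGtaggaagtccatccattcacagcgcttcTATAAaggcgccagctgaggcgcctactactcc
Fosb, chr7:19310046-19310165, − strand: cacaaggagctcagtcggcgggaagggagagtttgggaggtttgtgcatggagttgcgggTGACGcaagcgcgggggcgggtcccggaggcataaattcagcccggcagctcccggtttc
Jun, chr4:95052223-95052342, − strand: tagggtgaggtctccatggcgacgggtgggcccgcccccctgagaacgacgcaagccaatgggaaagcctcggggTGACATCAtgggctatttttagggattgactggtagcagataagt
Junb, chr8:84978749-84978868, − strand: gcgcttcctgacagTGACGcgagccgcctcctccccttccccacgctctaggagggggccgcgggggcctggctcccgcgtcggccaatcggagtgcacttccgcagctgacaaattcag
Atf3, chr1:191183334-191183453, − strand: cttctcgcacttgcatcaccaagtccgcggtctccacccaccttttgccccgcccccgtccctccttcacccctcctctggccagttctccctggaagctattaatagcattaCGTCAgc

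In these stretches TGACG lay at bases −66 to −62 of *Fos*, −60 to −56 of *Fosb*, −106 to −102 of *Junb* and −7 to −3 of *Atf3*. For *Jun* the form was TGACNTCA, at −45 to −38. *Fos* also had TATAA at −33 to −29. In the 250 bases before the start, searched on both strands, TGACG or TGACNTCA was found for 6 of the 8 members, *Maff* being the other one, against 25.5% of 27025 genes. *Fosl2* and *Jund* held neither there, and none of the 8 held TGACTCA or a CArG box in these bases, found in 4.46% and 1.47% of 32851 promoters. Counted from the GENCODE start, the RefSeq start of *Jund* lies at −1210, that of *Fosl2* at 671 and that of *Atf3* at 34706, inside its longest annotated span. An absence thus holds only for the 250 bases before the RefSeq start. Sequence further upstream was not searched, nor was that just before the GENCODE start of *Jund*, which lies downstream of its searched bases. The letters to be searched were chosen after these stretches had been read, and a match is a description of the sequence only.

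*Fos*, *Jun*, *Jund* and *Junb* were the abundant members in both libraries, and *Fosl2* and *Maff* were rare. *Fos* was the highest, at 1663 UMIs per 1000000 (CPM, 95% interval 1612 to 1715) in YFP− cells, beside 1772 CPM (1740 to 1804) in YFP+ cells. *Jun*, its main partner, followed at 1137 CPM (1095 to 1181) and 1204 CPM (1178 to 1230). Together with *Junb* and *Jund* they held 93.4% of the members' UMIs in YFP− and 92.1% in YFP+ cells.

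*Junb*, a Jun member that is also induced early, stood at 733 CPM (699 to 768) and 808 CPM (787 to 830). YFP− cells held *Jund* at 1094 CPM (1053 to 1137), against 810 CPM (788 to 831) for YFP+ cells. It was thus above *Junb* in YFP− cells and within its interval in YFP+ cells. *Fosb*, an early gene of the Fos group, was at 182 CPM (165 to 199) and 210 CPM (199 to 221), and *Atf3*, a stress-induced member that often acts as a repressor, at 124 CPM (111 to 139) and 161 CPM (151 to 171). *Fosl2*, which encodes Fra-2, was low, at 19.9 CPM (14.6 to 26.3) and 22.1 CPM (18.7 to 25.9). *Maff* was counted 5 times in YFP− and 11 times in YFP+ cells, at 2.07 CPM and 1.63 CPM, near the level that 3 counts give (1.24 and 0.445 CPM).

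**Figure D1:**
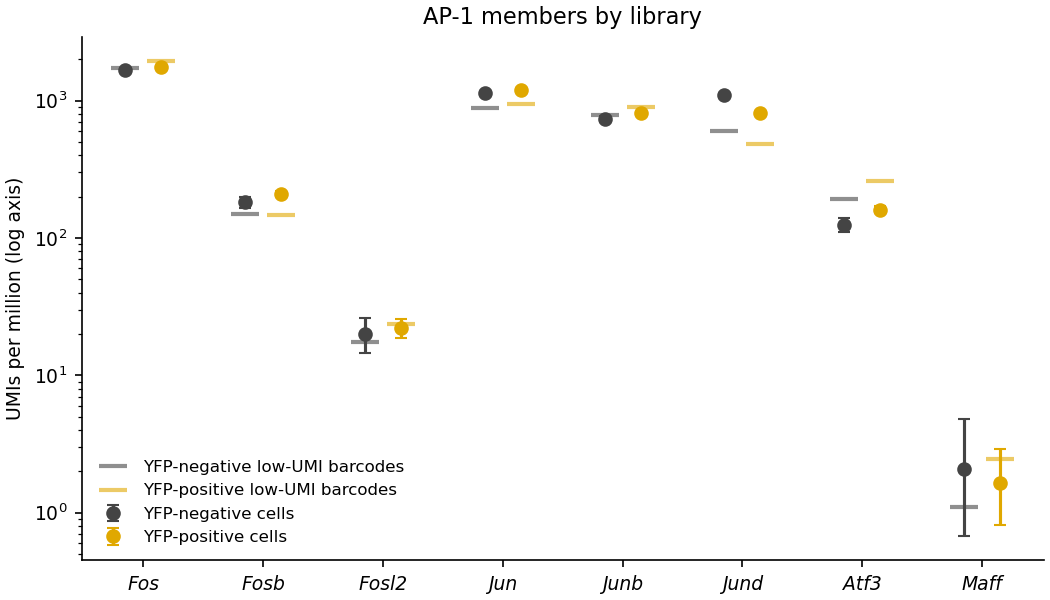
CPM of the 8 members in cells of the YFP− (dark) and YFP+ (yellow) libraries on a log axis, with exact Poisson 95% intervals, and in barcodes of the same libraries with 10 to 100 UMIs (horizontal dashes). *Jund* differs the most between libraries among the 6 members above 100 CPM (1094 against 810 CPM), and *Atf3* is the one of these 6 whose low-UMI barcodes lie furthest above the cells.

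Over all cells the members differed little between the 2 libraries, and *Jund* and *Atf3* moved in opposite directions. Summed over the 8 genes, YFP− cells had 4955 CPM against 4988 CPM for YFP+ cells, a log2 ratio of 0.01 (−0.02 to 0.04) of YFP+ over YFP−. None of the 8 reached 1.5-fold in either direction, where 6.88% of the 2632 genes with a mean of at least 50 CPM did. *Jund* was lower in YFP+ cells by a log2 ratio of −0.43 (−0.50 to −0.37), and 184 of those genes had a lower ratio. *Atf3* was higher, at 0.37 (0.18 to 0.55). The log2 ratios of *Fos* (0.09), *Jun* (0.08), *Junb* (0.14) and *Fosb* (0.21) had intervals above 0, and those of *Fosl2* (−0.31 to 0.62) and *Maff* (−1.30 to 0.85) spanned it. Log2 ratios here are on a scale of CPM plus 1. With 1 library per condition, a difference between libraries cannot be told apart from one between the cell populations.

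The lower *Jund* in YFP+ cells was seen in most clusters, and the higher *Atf3* in 5 of them. Cells were grouped in 10 clusters without the use of the AP-1 and other early-response genes. *Jund* was higher in YFP− cells in 9 of the 10, with intervals apart in 6. In the largest cluster it stood at 1071 CPM (1016 to 1127) for 515 YFP− cells, against 730 CPM (691 to 770) for 910 YFP+ cells. *Atf3* was higher in YFP− cells in 5 clusters and in YFP+ cells in the other 5, with intervals apart in 0. The summed members were higher in YFP− cells in 6 clusters, with intervals apart in 3. In the other 4 they were higher in YFP+ cells, also with intervals apart in 3. The same counts were not made for all genes, so it is unknown how common such differences within clusters are. The intervals cover counting error only. Without the cells of 1 cluster, the inflammatory-like one described further on, the log2 ratio of *Atf3* was 0.08, that of *Jund* −0.55, that of *Fosb* 0.05 and that of *Jun* 0.00. Of the 1045 YFP− cells 56 were in that cluster, as were 389 of the 4053 YFP+ cells.

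Free RNA carried the members at levels close to those of the cells, which limits what detection in a single cell shows. In barcodes with 10 to 100 UMIs, *Fos* stood at 1729 CPM (YFP− library) or 1961 CPM (YFP+ library), and *Atf3*, at 192 and 260 CPM, was above the cells. *Jund* was the one of the 6 abundant members furthest below them in these barcodes, at 599 and 481 CPM. After each cell was thinned to 500 UMIs, which kept every cell, 34.0% of the YFP− cells (31.1 to 36.9) had a UMI of *Fos*, against 37.5% (36.0 to 39.0) for YFP+. If all 500 UMIs of a cell were free RNA, 57.9% and 62.5% of cells would have one. The part of free RNA in a cell was not measured, so that such shares are not read as shares of expressing cells.

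A *Jun* UMI was present in 26.9% of the YFP− cells, against 31.0% for YFP+, one of *Junb* in 19.4% and 23.3%, and one of *Atf3* in 3.64% and 5.30%, all at or below what free RNA would give (35.9% and 37.9%, 32.4% and 36.3%, 9.17% and 12.2%). *Fosb*, at 6.51% and 7.65%, and *Fosl2*, at 1.15% and 1.23%, lay within or close to theirs (7.15% and 7.06%, 0.876% and 1.17%). *Jund* was found in 33.3% (30.4 to 36.3) and 26.9% (25.6 to 28.3) of cells and was the 1 common member above its free-RNA share, 25.9% and 21.4%. *Maff* was found in 2 of 1045 and 3 of 4053 cells. Without thinning, shares ran from 0.383% of YFP− cells for *Maff* to 65.7% for *Jund*.

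The members' RNA was spread unevenly over cells of equal depth. The load of a cell is used here for the summed UMIs of the 8 members among its 500 UMIs. Its mean was 2.30 in YFP− and 2.38 in YFP+ cells, with a variance 5.63 and 5.16 times the mean, where random sampling of 1 common level gives 1. A load of 0 was seen in 37.3% of YFP− (34.4 to 40.3) and 35.5% of YFP+ cells (34.0 to 37.0), against 10.0% and 9.28% for random sampling of the same mean. At the other end, 76 YFP− cells (7.27%, 5.77 to 9.02) and 344 YFP+ cells (8.49%, 7.65 to 9.39) had a load of 8 or more, and the 10% of cells with the highest load held 47.3% and 46.2% of all member UMIs. The highest loads were 28 and 27. The shares of the 2 libraries overlapped in their intervals at both ends.

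Among single members, *Jun* was the most uneven in YFP− cells, with a variance of 2.99 times its mean, and *Fos* in YFP+ cells, at 2.74. *Junb* followed at 2.41 and 2.20, then *Atf3* at 1.77 and 1.68, *Jund* at 1.76 and 1.58 and *Fosb* at 1.55 and 1.34. *Fosl2* (0.99 and 1.03) and *Maff*, with at most 1 UMI in a cell, did not exceed random sampling. Such a ratio grows with the level, and *Atf3* was as uneven as *Jund* at a lower level.

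The depth of the cells before thinning moved with the load. The median was 1563 UMIs at a load of 0 and 1791 at 8 or more, while the median share of mitochondrial UMIs was 1.05% and 1.03% and YFP+ cells made up 78.7% and 81.9%. The part of depth in the load was not tested.

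Across cells of 1 library and equal depth, 6 of the members varied together. The Pearson correlation (r) of log1p counts over the 15 pairs of *Fos*, *Fosb*, *Jun*, *Junb*, *Jund* and *Atf3* had a median of 0.27 in 1045 YFP− cells (0.14 to 0.43) and 0.26 in 4053 YFP+ cells (0.11 to 0.44). The cells of a library share its free RNA, its depth was made equal, and r is given as a description. *Fos* with *Jun*, which form the classical AP-1 dimer, was the highest pair in both libraries, at 0.43 and 0.44. These 2 also had the highest mean UMIs in thinned cells (0.75 and 0.55 in YFP−, 0.83 and 0.58 in YFP+ cells). *Fosb* and *Atf3* had the lowest means of the 6, and the part of abundance in the ranking of pairs was not tested.

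*Jun* with *Jund* came next in YFP− cells (0.39) and *Fos* with *Junb* in YFP+ cells (0.40). *Junb* and *Atf3* reached 0.27 and 0.33, while *Fosb* and *Atf3* were the lowest of the 15 pairs, at 0.14 and 0.11. The 13 pairs with *Fosl2* or *Maff* stayed between −0.03 and 0.10. Both are too sparse for a correlation at this depth.

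**Figure D2:**
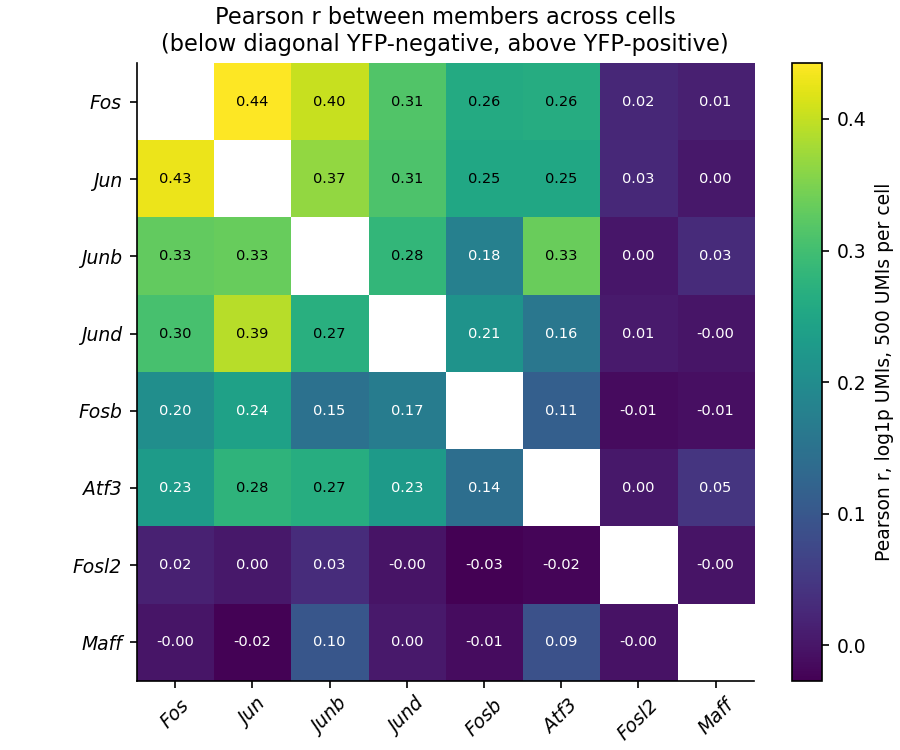
Pearson r of log1p UMIs between members across cells thinned to 500 UMIs, below the diagonal in YFP− and above it in YFP+ cells. *Fos* and *Jun* are the brightest pair in both (0.43 and 0.44), and *Fosl2* and *Maff* are dark throughout.

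In shares of cells the same pairing read as follows. *Jun* was found in 45.6% of YFP− cells with a *Fos* UMI and in 17.2% of those without, and in 50.1% and 19.6% in YFP+ cells. *Atf3* was found in 10.8% of YFP− cells with *Junb* and in 1.90% of those without, and in 14.2% and 2.61% in YFP+ cells. *Fosb* was found in 12.7% of YFP− cells with *Fos* and in 3.33% of those without, and in 14.2% and 3.71% in YFP+ cells. In these pairs a member was found more often beside its partner in both libraries.

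Each of the 6 members followed the load of the other 7 more closely than nearly every other gene did. For *Jun*, r was 0.52 in YFP− and 0.49 in YFP+ cells, and for *Fos* 0.47 and 0.53, with 0 of 2626 other genes higher in either library. *Junb* (0.40 and 0.46) and *Jund* (0.41 and 0.38) had 0 to 2 genes above them, and *Atf3* (0.28 and 0.29) and *Fosb* (0.26 and 0.29) 5 to 7. *Fosl2* was at 0.02 in both, with 572 and 331 genes above it. Since the members were chosen with such a pattern of these cells in view, their place among all genes is no independent support.

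The members could be set in an order by their detection along the load. The load groups cells by their counts and is not a time. For each member, cells were grouped by the load of the other 7, so that a member never counted towards its own group. Among the 2297 cells without a UMI of its 7 partners, *Fos* was found in 20.4% (18.8 to 22.1), and it was found in 50.7% (47.3 to 54.1) at a load of 2 to 3 and 91.2% (86.3 to 94.8) of 194 cells at 8 or more. *Jund* (16.98% at 0) and *Jun* (15.4%) came next in cells without partners, reaching 71.2% and 87.4% at the highest load. *Junb* was found in 9.28% (8.05 to 10.6) and 69.8% (64.4 to 74.8). The libraries differed in *Jund*: among YFP− cells without partners it was found in 20.6% (17.1 to 24.4), beside 15.8% to 23.1% for the interval of *Fos*, and among YFP+ cells in 15.96% (14.2 to 17.8), below the interval of *Fos* (18.9 to 22.7). At a load of 4 to 7, *Jun* was found in 62.4%, *Jund* in 49.6% and *Junb* in 44.97%.

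*Fosb* and *Atf3* were rare until the load was high. *Fosb* went from 2.19% (1.58 to 2.96) at 0 to 14.7% (12.0 to 17.6) at a load of 4 to 7 and 29.8% (25.4 to 34.6) at 8 or more. *Atf3* went from 1.46% (0.961 to 2.11) to 7.56% (5.70 to 9.79) and then to 28.4% (24.1 to 33.1). *Fosl2* stayed between 0.908% and 2.19% in every group with overlapping intervals for the lowest and highest load. *Maff* was found in 5 cells in all.

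**Figure D3:**
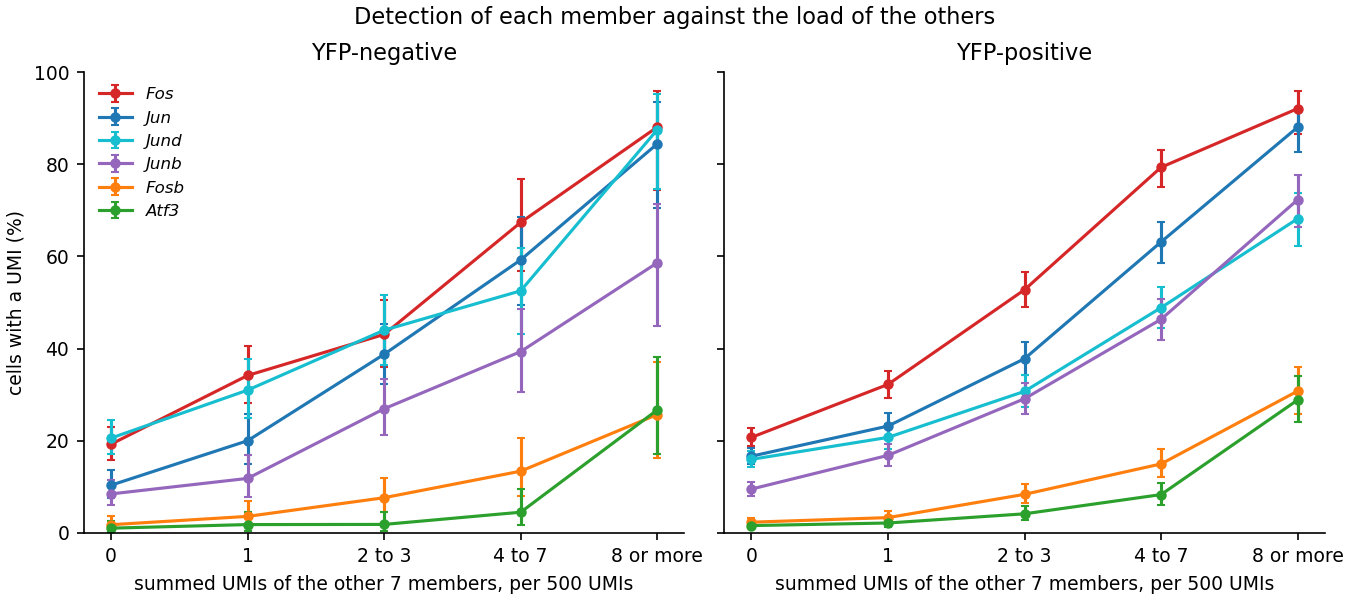
Share of cells with a UMI of each of 6 members against the summed UMIs of the other 7 members, in cells thinned to 500 UMIs, with exact 95% intervals, for YFP− (left) and YFP+ cells (right). *Fos* leads the curves in YFP+ cells, *Jund* lies beside it at loads of 0 to 3 in YFP− cells, and *Atf3* stays under 10% up to a load of 4 to 7 before reaching 26.7% and 28.8%.

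Shares depend on how abundant a member is, so its level at each load was also set against its own level at the highest load. Of the 6 members without *Fosl2* and *Maff*, which were too sparse to be ordered, *Jund* kept the most at a load of 0, 14.1% of its highest level (411 against 2919 CPM), followed by *Fos* (8.51%), *Jun* (6.74%), *Junb* (6.20%), *Fosb* (5.31%) and *Atf3* (3.40%, 30.2 against 888 CPM). At a load of 4 to 7, *Fos* was at 62.9% and *Jund* at 59.1%, *Jun* at 50.9%, *Junb* at 44.5%, *Fosb* at 39.8% and *Atf3* at 22.9%. *Jund* kept the most at a load of 0, and *Atf3* was the lowest at 4 to 7, in YFP− cells alone (12.4% and 13.1%) and in YFP+ cells alone (14.1% and 25.05%). The full order of the 6 moved under some alternatives, which are given at the end.

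The groups differ between members in that procedure, because each leaves out itself. A load that is the same for all 8 was therefore taken from 30 other early-response and feedback genes, among them *Egr1*, *Ier2*, *Dusp1* and *Zfp36*. At 0 of their UMIs, *Jund* stood at 14.98% of its level at 8 or more, against 7.19% for *Jun*, 6.04% for *Fos*, 4.87% for *Junb*, 4.57% for *Fosb* and 4.46% for *Atf3*. At 4 to 7, *Jund* was at 46.9%, *Fos* and *Jun* at 40.0%, *Fosb* at 37.9%, *Junb* at 29.0% and *Atf3* at 22.2%. Among these 6 members, *Jund* thus kept the most at 0 and *Atf3* was lowest at 4 to 7 by either load, while at 0 of the common load *Fosb* and *Atf3* had the same level (31.8 CPM each). At 0 of that load in YFP+ cells alone, *Atf3* (5.23%) was above *Junb* (4.16%) and *Fosb* (3.66%). Without the inflammatory-like cluster, *Atf3* in cells without partners was at 11.6% of its highest level, against 14.8% for *Jund* and 5.40% for *Fosb*, so that its low place at a load of 0 rested on that cluster, while at 4 to 7 it was still the lowest, at 39.2% beside 40.6% for *Fosb*.

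Cells with few members held the same ones. In the 1448 cells with exactly 1 member, this was *Fos* in 32.4% (30.0 to 34.9), *Jund* in 25.8% (23.6 to 28.2), *Jun* in 22.9% (20.8 to 25.2) and *Junb* in 12.9% (11.2 to 14.8). *Fosb* made up 2.83%, *Atf3* 1.86% and *Fosl2* 1.24%. In YFP− cells *Jund* (34.9%, 29.5 to 40.8) stood beside *Fos* (32.2%, 26.8 to 37.9) in these cells, and in YFP+ cells *Jund* (23.6%, 21.1 to 26.1) was below *Fos* (32.4%, 29.8 to 35.2). *Atf3* was alone in 10.7% of its own 253 cells, and a cell with *Atf3* held a median of 3 other members, against 1 for *Fos* and *Jund*. Of the 130 cells with 5 members, 99.2% had *Fos*, 96.9% *Jun*, 96.2% *Junb*, 93.1% *Jund*, 57.7% *Atf3* and 53.8% *Fosb*. All 24 cells with 6 members had *Fos*, *Jun*, *Junb*, *Jund* and *Atf3*, and no cell had 7 or 8. With *Fosl2* found in 62 cells and *Maff* in 5, little else was possible in cells with so many members. The members most often alone were also the abundant ones, so that these shares are no separate support for an order.

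The level of the members differed between clusters of cells, with 1 cluster far above the rest. In the 445 cells of the inflammatory-like cluster, which was led by *Il1b*, *Cxcl2* and *Ccl4* beside heat-shock and early genes left out of the clustering (*Hspa1a*, *Dnajb1*, *Nr4a1*), the 8 members summed to 15548 CPM (15302 to 15796). All other cells together were at 3706 CPM, a ratio of 4.19. A load of 8 or more was seen in 49.0% of its cells (44.3 to 53.7), and the summed level was 18125 CPM for its YFP− cells, against 14979 CPM for its YFP+ cells.

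Each member but *Fosl2* had its highest level there among the 10 clusters. *Fos* stood at 5177 CPM, *Jun* at 3905 CPM, *Junb* at 2810 CPM, *Jund* at 2153 CPM and *Fosb* at 589 CPM, and *Fosl2*, at 36.5 CPM, was second to the mural-like cluster. *Atf3* was at 869 CPM (812 to 929), and its next-highest cluster, the monocyte-like one, was at 90.8 CPM (77.7 to 105.5). *Maff* was counted 8 times, at 8.12 CPM. *Atf3* was thus the member most concentrated in these cells.

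The mural-like cluster of 99 cells came second, at 6567 CPM (6158 to 6995), with another mix of members. *Fos* (2651 CPM) and *Junb* (1893 CPM, 1676 to 2129) were higher there than in any cluster but the inflammatory-like one, *Jun* (936 CPM) and *Jund* (765 CPM) were within the range of the other clusters, and *Atf3* was counted 3 times (20.5 CPM, 4.23 to 59.9). For *Junb*, its 13 YFP− cells gave 1858 CPM, against 1898 CPM for its 86 YFP+ cells.

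The other 8 clusters lay between 1650 and 4104 CPM. The largest, of 1425 cells led by *Egfl7*, *Gpx3* and *Vcam1*, was at 4104 CPM (4034 to 4175). The monocyte-like cluster (885 cells, with *S100a4*, *S100a6* and *Ccr2*) was at 3640 CPM, the cycling-like (77 cells) at 2816 CPM and the interferon-like (141 cells) at 2636 CPM. The monocyte-like name rests on those 3 genes, since only 3 of the 6 monocyte markers looked for were detected over all cells. The Cd209-high-like cluster of 130 cells was the lowest at 1650 CPM (1476 to 1839), with *Fos* at 543 CPM, *Jun* at 307 CPM and *Jund* at 458 CPM. Only 1 of its cells had a load of 8 or more (0.769%). A cluster of 1046 shallow cells led by *Cxcl13*, *Fhl3* and *Plau* (median 885 UMIs), of which 1003 were YFP+, was at 3084 CPM.

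**Figure D4:**
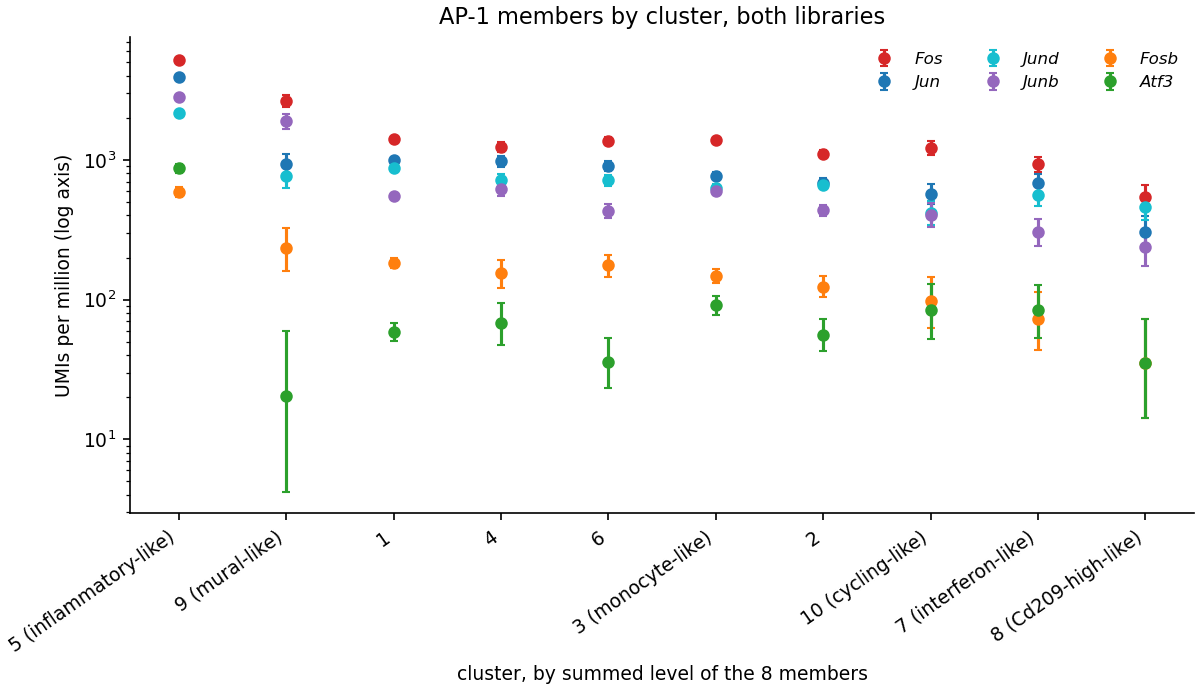
CPM of 6 members in 10 clusters of both libraries, ordered by the summed level of all 8, on a log axis with exact Poisson 95% intervals. The inflammatory-like cluster is highest for all 6, and the mural-like cluster has high *Fos* and *Junb* (2651 and 1893 CPM) with *Atf3* at 20.5 CPM.

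Other genes of the early response were higher in cells with many AP-1 UMIs. The 420 cells with a load of 8 or more were compared with the 1828 cells with 0, on thinned counts of both libraries. Only 49 YFP− and 153 YFP+ cells with such a high load lay outside the inflammatory-like cluster, against 76 and 344 in all. The contrast is thus in large part one between that cluster and other cells. A gene was counted where it was at least 1.5-fold apart in the same direction in each library and in both together. Over the 2626 other genes with a mean of at least 50 CPM, 3.77% were higher and 5.94% lower, and the median log2 ratio was −0.11.

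Of the list of other early-response transcription factors, 6 of 6 compared genes (of 12 listed) were higher, with a median log2 ratio of 2.45. *Ier5* stood at 471 against 67.8 CPM, *Ier2* at 1857 against 292 CPM, and *Egr1*, a zinc-finger factor turned on by the same kinases, at 1543 against 246 CPM (log2 ratio 2.64, 2.39 to 2.89). *Klf6* (2.25) and *Klf4* (2.15) were also among them. The feedback list, genes that switch off kinases, NF-κB or labile RNAs, had 7 of 10 compared genes higher, with a median of 2.89. *Dusp1*, a MAP kinase phosphatase, stood at 3800 against 478 CPM, *Nfkbia*, the inhibitor of NF-κB, at 1586 against 177 CPM and *Zfp36*, which marks RNAs for decay, at 1186 against 140 CPM. *Btg2* had a log2 ratio of 3.25, and *Socs3*, counted 74 times against 9 times, one of 5.03 (4.08 to 6.07), with no UMI at the lowest load in YFP− cells.

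The chaperone list had 7 of 9 compared genes higher, with a median of 2.38, and was led by *Hspa1a*, an inducible Hsp70, at 3976 against 140 CPM (4.82, 4.55 to 5.10). *Hspa1b* (3.68), *Dnajb1* (3.31), *Dnaja1* (2.58) and *Hsp90aa1* (2.38) followed. Of the cytokines and chemokines, 5 of 6 compared genes were higher, with a median of 3.01. *Cxcl2*, a neutrophil chemokine, was at 1657 against 41.6 CPM (5.28, 4.81 to 5.79), *Ccl4* at 719 against 79.9 CPM, *Ccl2* at 643 against 76.6 CPM, *Ccl3* at 729 against 91.9 CPM and *Ccl7* at 214 against 70.0 CPM. No compared gene of these 4 lists was lower. Without the inflammatory-like cluster, 6 early-response, 7 feedback, 5 chaperone and 4 cytokine genes were still higher. Cytokine genes were not left out of the clustering, and *Cxcl2* and *Ccl4* are leading genes of that cluster. Their ratios over all cells are therefore not independent of it.

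Genes above and beside AP-1 did not follow the load in this way. Of the kinases and factors upstream of AP-1, such as *Mapk14* and *Elk3*, 0 of 7 compared genes were higher and 0 lower, with a median of −0.09. Of 18 macrophage genes, 0 were higher and 0 lower, with a median of −0.02, and their summed level was 95790 CPM at the highest and 96201 CPM at the lowest load. Among 5 compared genes of the wider AP-1 family 1 was higher, *Atf4*, a factor of the integrated stress response, at 167 against 84.2 CPM (0.98, 0.36 to 1.57). *Maf*, an identity factor of resident macrophages, was at 1157 against 1500 CPM (−0.37, −0.58 to −0.18).

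**Figure D5:**
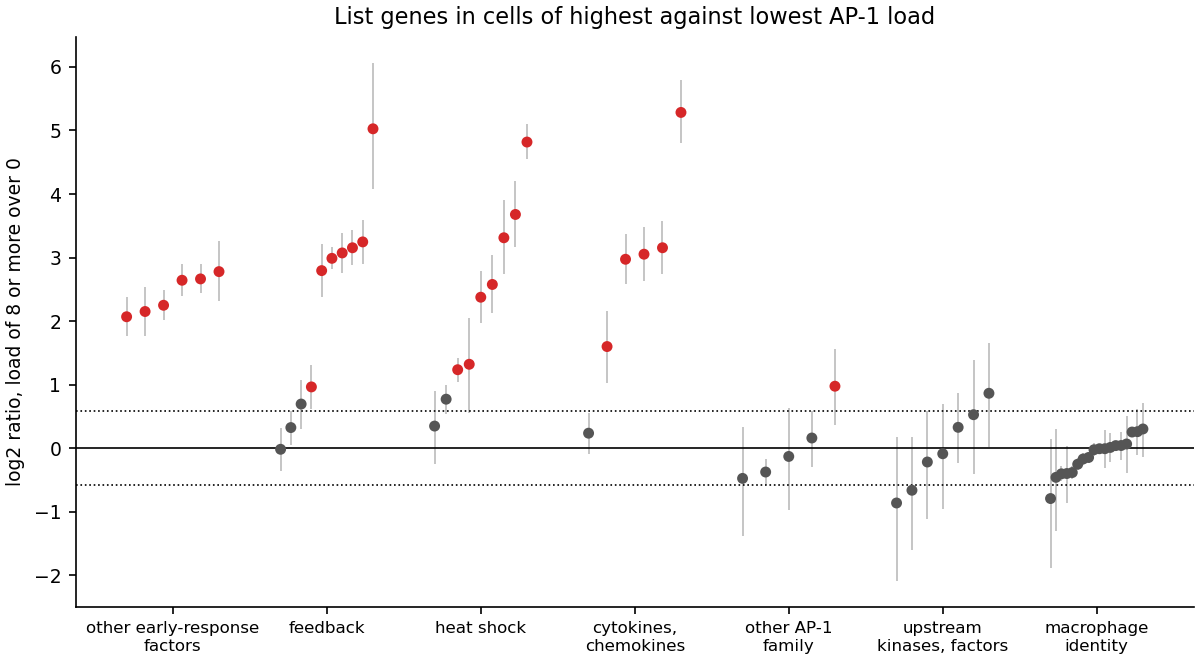
Log2 ratio of each compared list gene in cells with a load of 8 or more over cells with 0, with 95% counting intervals, and the 1.5-fold lines (dotted). Red points passed 1.5-fold in each library. They make up 6 of 6, 7 of 10, 7 of 9 and 5 of 6 genes of the early-response, feedback, chaperone and cytokine lists, against 1 of 5, 0 of 7 and 0 of 18 in the others.

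The wider family was otherwise low or even across the libraries. *Maf* (1450 CPM for YFP− cells, 1296 CPM for YFP+ cells) was the highest of those given here, followed by *Atf4* (108 and 97.2 CPM), the small Maf *Mafg* (90.6 and 77.1 CPM) and *Batf3* (75.7 and 75.4 CPM). *Atf6*, *Atf7*, *Atf2*, *Jdp2* and *Batf* lay between 22.2 and 47.1 CPM, and *Atf5*, *Mafk* and *Batf2* between 4.15 and 9.34 CPM. *Jdp2*, a repressor that pairs with Jun proteins, was 1.5-fold apart, as 1 of the 14 genes beside 6.88% of all genes compared, and lay below the 50 CPM asked of those, with 25.6 CPM for YFP− cells against 40.3 CPM for YFP+ cells (log2 ratio 0.63, 0.24 to 1.04). *Fosl1*, the remaining Fos gene, was not counted in either library, which by the limit of 3 counts allows up to 1.24 and 0.445 CPM (exact Poisson upper bounds 1.53 and 0.547 CPM).

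Over all genes with a mean of at least 50 CPM in both libraries (2441 without the members), 9 of the 10 most like the summed members in their pattern over cells are given here. By the mean of r in the 2 libraries these were *Dusp1* (0.45), *Hspa1a* (0.41), *Egr1* (0.31), *Ier2* (0.30), *Zfp36* (0.29), *Btg2* (0.29), *Nfkbia* (0.27), *Cxcl2* (0.25) and *Klf6* (0.24). All of these were on a list. The lowest were *Pf4* and *C1qc* (both −0.10), *Ifi27l2a* (−0.09), *Retnla* and *Lgals1* (both −0.08).

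RNA of other nerve cells moved with the load in part. The 6 Schwann markers summed to 2057 CPM at the highest and 1051 CPM at the lowest load. Among these, *Mbp* was at 381 against 334 CPM and *Pmp22* at 810 against 438 CPM, and 1 of the 3 compared genes passed 1.5-fold in each library. The 6 fibroblast markers summed to 157 and 29.5 CPM with *Pdgfra* at 0 in both, the 5 mural markers to 42.9 and 91.9 CPM, and the markers of neutrophils, T cells, dendritic cells, mast cells and endothelial cells to at most 23.8 CPM each. Those of B cells were at 295 and 375 CPM. Without the 27 YFP− and 162 YFP+ cells that had 2 or more UMIs of the Schwann, fibroblast and mural markers, the median r over the 15 pairs was 0.27 in both libraries, and 6, 7, 6 and 5 genes of the early-response, feedback, chaperone and cytokine lists were higher.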

How the data were processed

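CD64+ CD45int SN macrophages were sorted as YFP− and YFP+ cells from the reporter mice, and each population was run on its own 10x lane (3′ chemistry, version 2). For every gene in every barcode the authors deposited unnormalized UMI counts, made by Cell Ranger on GRCm38, with no filter on cells. The submitters' processing notes list Cell Ranger 3.0.2 and Seurat 2.2.0. Barcodes with at least 500 UMIs and 200 genes were kept as cells, and doublets were kept, since no doublet caller was run. Levels are CPM of the summed UMIs with exact Poisson 95% intervals. Log2 ratios have a pseudocount of 1 CPM and exact conditional intervals, and genes with a mean of at least 50 CPM made up the background. Intervals cover counting error only, since each condition was 1 library and no test was possible. Shares, correlations and loads were computed in cells thinned to 500 UMIs, with Clopper-Pearson intervals. Free-RNA shares came from barcodes with 10 to 100 UMIs, as if all 500 UMIs of a cell were free RNA.

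Cells were clustered by Leiden (2000 variable genes, 20 components, 20 neighbours, resolution 0.8) without the members and the other early-response, feedback and heat-shock genes. A name needed at least 3 detected markers, and at least 2 among the 10 leading genes, limits chosen once the clusters were known. The members and the gene lists were chosen with earlier results of these data known. Named genes were the 8 members, the wider AP-1 family, up to 5 genes per list past 1.5-fold in both libraries, and the 10 highest and 5 lowest genes by r with the load. *Mbp* and *Pmp22* were named after their values were seen, and some genes that the rule names are not reported here. Python 3.11.15, numpy 2.4.6, scipy 1.17.1, pandas 2.3.3, scanpy 1.11.5, leidenalg 0.10.2, scikit-learn 1.9.0 and matplotlib 3.10.9 were used, and the scripts were tested on simulated data.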

Additional observations from a re-analysis of the deposited data

How the results depend on the processing

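No paired analysis was possible because each condition is 1 library. Of the values that answer a comparison, 150 were called kept under the alternatives and 24 moved. Of the values for single members, 162 were kept and 58 moved. For their levels as percents of that at the highest load, a fixed limit on the shift was used. Log2 ratios and shares were kept if they stayed within the interval of the reported value. For r the limit was a shift under 0.05, and for the order a rank correlation of at least 0.8. Counts and the cluster ratio were kept within a factor of 1.5, and a count of 0 that stayed 0 was also kept. The summed log2 ratio lay near 0 and had either sign, from −0.11 to 0.05, and those of *Maff* and *Fos* also crossed 0 under 1 alternative each. The alternatives that left out the inflammatory-like cluster, used another load or compared lists were chosen after seeing the data. Without the inflammatory-like cluster the log2 ratio of the summed members was −0.11, 1 member (*Maff*, on few UMIs) was 1.5-fold apart, the median r over the 15 pairs was 0.17 in YFP− and 0.19 in YFP+ cells, the rank correlation of the order at the lowest load with that reported was 0.37, and 1 wider AP-1 gene and 1 upstream gene were lower at the highest load. With equal weight per cell the summed log2 ratio was 0.051. The share of cells with any member was 79.6% and 79.7% in YFP− and YFP+ cells thinned to 1000 UMIs and 86.7% and 83.4% without thinning. The median r was 0.34 and 0.36 at 1000 UMIs, 0.39 and 0.38 on log counts per 10000 without thinning, and 0.20 in YFP− cells by Spearman. With the load as the number of other members detected, the rank correlation of the order at the next-highest load was 0.49. At the highest load, 1 wider AP-1 gene was lower and 11 feedback genes were higher without a minimum on CPM, 1 upstream gene was higher on unthinned counts, 2 were higher and 1 macrophage gene was lower at 1000 UMIs, and 1 upstream gene was lower with another random seed. The cause of these shifts was not tested. Of the 6 members ordered, *Jund* kept the highest share of its level at the lowest load and *Atf3* the lowest at the next-highest load under each alternative run.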
